A study of Mus musculus with 12 samples.

Results

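The genes described here are 48 components of transforming growth factor beta (TGF-beta), activin and bone morphogenetic protein (BMP) signalling, measured in mammary tumours of mice with and without the retinoic acid receptor beta gene Rarb. They were chosen by symbol as 13 ligand genes, 13 receptor genes, 6 extracellular antagonists, 4 latent TGF-beta binding proteins, 8 Smads and 4 target genes. Each array probe was assigned to a gene through its accession. All 48 had a probe on the array, and 40 were measured above background among 13350 measured genes. Probes of the other 8 (Bmp6, Gdf15, Bmpr1b, Bambi, Grem1, Smad1, Smad7 and Smad9) were well above background on too few arrays for a value to be given. Of the 40 measured genes, 29 were above background on all 12 arrays.

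The tumours arose in FVB mice carrying the MMTV-Wnt1 transgene, in which a mouse mammary tumour virus promoter directs expression of the growth factor Wnt1 to mammary epithelium. All 4 groups shared this transgene, so no group shows mammary tissue without a tumour. Epithelium and stroma of each tumour were collected by laser capture microdissection and hybridised to 2-colour arrays against a universal mouse reference RNA. The groups are Rarb -/- epithelium (tumours 1, 3 and 4), wild-type epithelium (tumours 1, 2 and 3), and the stroma of the same 6 tumours, with 3 arrays a group, called KO and WT below. The labels list Rarb -/- for both compartments of the KO tumours. Ages and treatments of the animals are not given in the sources used here, nor is it stated whether the tumours came from separate mice. Each p-value therefore measures the spread between these samples, which may be partly technical.

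Ligands of this family are secreted dimers that bring together type I and type II receptor kinases. TGF-betas and activins act mainly through Smad2 and Smad3, BMPs through Smad1, Smad5 and Smad9, and both branches share Smad4. TGF-beta is released in a latent complex held in the matrix by latent TGF-beta binding proteins, while follistatins, noggin and chordin bind activins or BMPs outside the cell. In the mammary gland, TGF-beta restrains duct growth and acts on stromal fibroblasts, and it is a known inducer of matrix genes in tumour stroma.

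Values are log2 ratios of tumour sample over reference RNA for the same probe, so they rank samples for a gene and not genes against each other. Cy3, the colour of the tumour RNA, was well above background on 37.1% to 47.3% of spots per array, no spot was saturated, and precision is limited by having 3 arrays a group. Flagged spots numbered 211 on the array of WT epithelium 3 and at most 16 elsewhere, and this array was more than 1 log2 unit above the other 5 epithelial arrays for 5 measured signalling genes (Acvr1, Fstl3, Ltbp2, Smad2 and Id1) and for 3.23% of all genes. For Acvr1 the probe used read 2.07 on this array and a second probe 0.15. KO and WT arrays lie in different rows of each slide and each slide holds 1 compartment, so that slide row and genotype cannot be told apart, nor can compartment and slide. Cell type markers differed between the stromal groups. The mean ratio of 13 fibroblast genes was 2.91 to 3.21 in KO stroma and 0.01 to 1.59 in WT stroma, against -3.05 to -0.31 in KO and -2.02 to 0.88 in WT epithelium. The mean of 11 measured luminal epithelial genes was 0.58 to 1.60 in KO stroma and 2.14 to 2.98 in WT stroma, against 2.76 to 3.75 over both epithelia. The mean of 8 basal epithelial genes differed between stroma and epithelium by -0.85, -0.95 and -0.30 in KO tumours 1, 3 and 4, with 3 of the 8 differences positive and 1 gene called lower. The basal keratin gene Krt5, one of the 8, was at 7.96 to 8.26 in KO stroma and 8.04 to 8.39 in KO epithelium. Epithelial markers were thus detected in the captured stroma of both genotypes. Across genes, which are not independent replicates, stromal arrays correlated with epithelial arrays of their genotype at a mean of 0.81 in WT and 0.57 in KO. In such bulk samples, fewer cells of a type and less RNA per cell cannot be told apart.

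**Figure D1:**
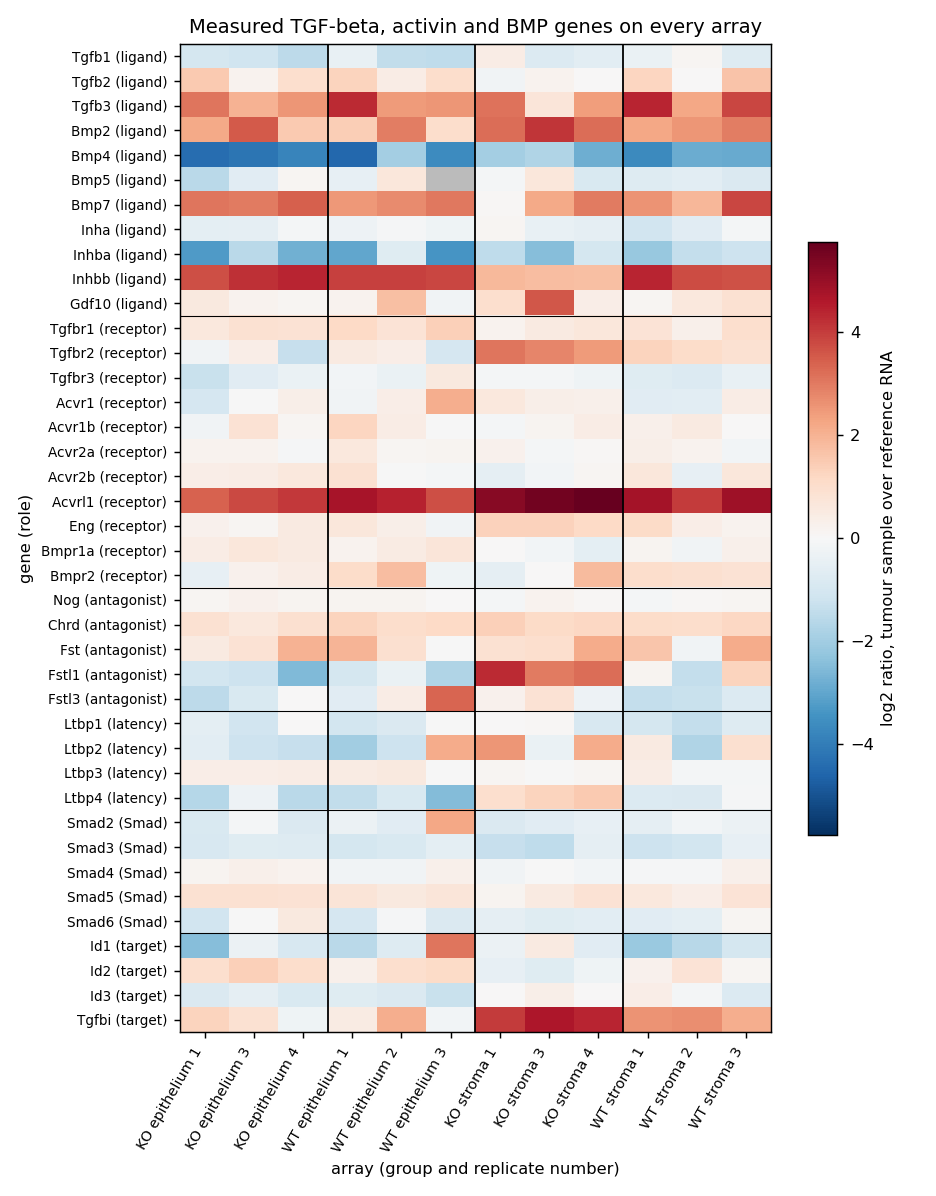
Log2 ratio of tumour sample over reference RNA (colour scale) for the 40 measured genes (vertical axis, grouped by role) on each of the 12 arrays (horizontal axis, 4 groups of 3), with grey for the 1 missing value. The ligand Inhbb is paler in the 3 KO stroma columns (1.72 to 1.86) than in the other 9 columns (3.66 to 4.36), and Fstl1, Tgfbr2 and Tgfbi are darkest red there.

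The first comparison, KO with WT epithelium, asked whether these genes differed with genotype in the tumour cells. No signalling gene passed the threshold, a Benjamini-Hochberg adjusted p under 0.05 in limma over all 13350 genes, where 1 gene in all was called (0.00749%). A single member had an unadjusted p under 0.05, against 8.09% of all genes. This was Tgfbr3, the co-receptor betaglycan, at -1.30, -0.64 and -0.40 in KO and -0.17, -0.36 and 0.56 in WT epithelium. The 3 KO values lay below the 3 WT values, with a log2 difference of -0.79 (SE 0.28, adjusted p = 0.612). The BMP antagonist Chrd was at 0.87, 0.62 and 0.92 in KO and 1.28, 1.0 and 1.14 in WT epithelium (log2 difference -0.34, adjusted p = 0.625). Its reference channel also differed between KO and WT epithelium, by -0.68 log2 units. The BMP effector Smad5 was at 0.89, 0.87 and 0.84 in KO and 0.76, 0.56 and 0.70 in WT epithelium (adjusted p = 0.824). These 3 were the members whose groups did not overlap, while 14.0% of all genes showed no overlap. The median log2 difference was -0.16 over the 40 members and 0.03 over all genes, and 17 of the 40 differences were above 0. Apart from Fstl3, all differences lay between -1.49 (Id1) and 0.61 (Bmp2). That of Fstl3, -1.82 (adjusted p = 0.617), came with 3.33 on WT epithelium 3 against -0.66 and 0.42 on the other WT arrays. The reference channel of Fstl3 also differed between KO and WT epithelium, by -0.91 log2 units. For Bmp5 the value of WT epithelium 3 was missing and the fit used 2 WT arrays. For Tgfb2 the probe used gave a difference of -0.03 and a second probe -1.08.

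In stroma, 3 of the 40 genes passed the test, against 850 of all genes (6.37%). Inhbb was lower in KO stroma, as were 2.87% of all genes, and Fstl1 and Ltbp4 were higher, as were 3.50% of all genes. The 3 belong to different steps of the pathway, namely a ligand subunit, a secreted follistatin-like protein and a latent TGF-beta binding protein. None of the 11 receptors, 5 Smads or 4 targets passed.

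Inhbb encodes the beta B subunit of activin B and inhibin B. It was at 1.86, 1.79 and 1.72 in KO stroma and at 4.36, 3.74 and 3.66 in WT stroma. All 3 KO values lay well below the lowest WT value, while both epithelia lay with WT stroma (3.70, 4.18 and 4.36 in KO and 3.95, 3.92 and 3.83 in WT). Its ratio fell by 2.13 on the log2 scale in KO stroma (SE 0.22, a 4.37-fold difference, adjusted p = 0.00263). In a limma fit of only the 6 stromal arrays, all from 1 slide, the adjusted p was 0.0328. The difference itself cannot change in that fit, since it rests on the same arrays. The gene was called when each of the 6 stromal arrays was left out. In WT tumours stroma minus epithelium was 0.02 (SE 0.22, adjusted p = 0.99). Over the same arrays 5 luminal markers were called lower in KO stroma, with -3.18 for the keratin gene Krt8 and -3.05 for the luminal transcription factor gene Elf5, and the part of luminal RNA in the Inhbb value was not tested.

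Fstl1 encodes a secreted glycoprotein of the follistatin family that is made mainly by mesenchymal cells. Its ratios were 4.30, 2.99 and 3.22 in KO stroma and 0.15, -1.38 and 1.26 in WT stroma. All 3 KO values exceeded the highest WT value, and the WT values lay on both sides of the reference. The log2 difference was 3.49 (SE 0.66, an 11.3-fold difference, adjusted p = 0.0169). Fstl1 fell short of the threshold without KO stroma 1 (3.1, adjusted p = 0.0601), without WT stroma 1 (3.56, adjusted p = 0.0607) and in the fit of the stromal arrays alone (adjusted p = 0.058). In both epithelia Fstl1 lay below the reference, at -2.52 to -0.39.

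Ltbp4, which holds latent TGF-beta in matrix microfibrils and takes part in elastic fibre assembly, was at 0.95, 1.28 and 1.52 in KO stroma and at -0.79, -0.85 and -0.08 in WT stroma. The groups did not overlap, and the log2 difference was 1.82 (SE 0.46, 3.54-fold, adjusted p = 0.0415). A second Ltbp4 probe gave -0.26, 0.70 and 1.02 in KO and -0.59, -0.66 and -0.81 in WT stroma, a difference of 1.18. The Ltbp4 call was kept in 5 of 15 other settings, against 11 for Fstl1 and 14 for Inhbb. It was lost without any 1 of 5 stromal arrays (adjusted p = 0.082 to 0.139) and kept without WT stroma 3, and it was lost with Agilent's processed signals (0.053), median centring (0.158), no filter (0.0571), tumour as a random block (0.0522) and the replicate number as a block (0.383).

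The fibroblast markers moved with Fstl1 and Ltbp4. All 13 had a positive difference in KO stroma and 4 were called (Fap, Col5a1, Col6a2 and Pdgfra, at 1.49 to 3.21). WT stroma 2, which had the lowest Fstl1 value, also had the lowest mean of the fibroblast list (0.01). Macrophage markers were at 3.34 to 3.81 in KO and 1.25 to 2.61 in WT stroma, endothelial markers at 1.64 to 2.95 and 0.93 to 1.5, and pericyte markers at 1.49 to 2.27 and 0.24 to 1.31. The basal epithelial list had lower means in KO stroma, 2.03 to 3.27 against 3.57 to 3.94. Adipocyte genes stood out on KO stroma 3 (4.79) and T and NK cell genes on WT stroma 2 (4.47). The part of these cell types in the values of Fstl1 and Ltbp4 was not tested. The reference channel differed by at most 0.41 log2 units between genotypes for the 3 called genes and by at most 0.91 for any measured member (Bmp5).

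**Figure D2:**
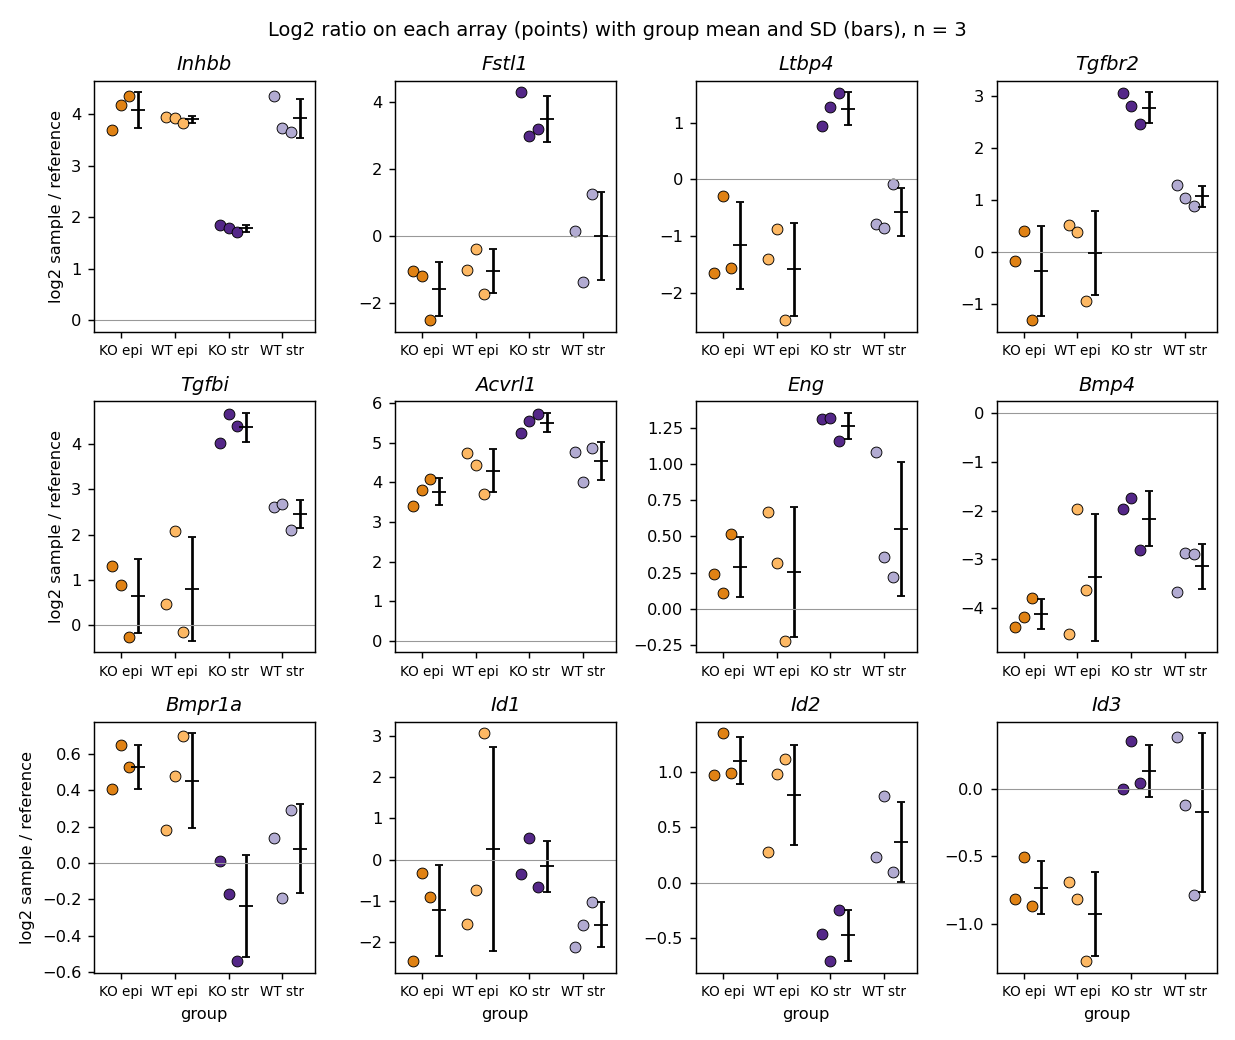
Log2 ratio of tumour sample over reference (vertical axis, one scale per panel) for 12 genes in the 4 groups (horizontal axis), with points for single arrays and bars for mean and SD of 3 arrays. Inhbb lies at 1.79 in KO stroma and near 4 in the other groups, and Fstl1, Ltbp4, Tgfbr2 and Tgfbi have their highest means in KO stroma.

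A further 5 genes had an unadjusted p under 0.05 in stroma without passing the adjusted threshold, so 8 of 40 members did, against 21.5% of all genes. Tgfbr2, the ligand-binding type II receptor of TGF-beta, was at 3.06, 2.81 and 2.47 in KO and 1.29, 1.04 and 0.88 in WT stroma. The KO values were all higher, by 1.71 on average (SE 0.46, adjusted p = 0.0534), but a second and dimmer Tgfbr2 probe differed by 0.23, and the mean of both probes by 0.97 (adjusted p = 0.147). The matrix gene Tgfbi, named for its induction by TGF-beta, was at 4.03, 4.67 and 4.40 in KO and 2.60, 2.67 and 2.11 in WT stroma, without overlap (log2 difference 1.90, SE 0.54, adjusted p = 0.0613). Tgfbr2 and Tgfbi both passed in the fit of the 6 stromal arrays alone (adjusted p = 0.0335 each).

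Acvrl1, a type I receptor known from endothelial cells, was at 5.25, 5.54 and 5.74 in KO and 4.78, 4.0 and 4.87 in WT stroma. Its partner Eng, the endothelial co-receptor endoglin, was at 1.31, 1.32 and 1.16 in KO and 1.08, 0.36 and 0.22 in WT stroma. For both genes the KO values lay above the WT values, with log2 differences of 0.96 (adjusted p = 0.104) and 0.71 (adjusted p = 0.154), and the endothelial marker means given above showed the same order without overlap. Id2, an inhibitor of basic helix-loop-helix factors, had the opposite order, at -0.46, -0.71 and -0.25 in KO and 0.23, 0.78 and 0.10 in WT stroma (log2 difference -0.85, SE 0.26, adjusted p = 0.0828).

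The 3 measured Id genes did not share a direction. The BMP target Id1 was at -0.35, 0.53 and -0.66 in KO and -2.12, -1.59 and -1.02 in WT stroma (log2 difference 1.42, SE 1.01, adjusted p = 0.475), the reverse of Id2. Id3 was at 0.00, 0.35 and 0.04 in KO and 0.38, -0.12 and -0.79 in WT stroma, with overlapping groups (0.31, adjusted p = 0.591). The 5 measured antagonists all had positive differences, as did 6491 of all 13350 genes. Nog was not well above background on any stromal array, and the differences of Chrd (0.15, SE 0.16) and Fst (0.16, SE 0.68) were smaller than their SEs. Of the 5, the activin antagonist Fstl3 was at 0.23, 0.81 and -0.30 in KO and -1.37, -1.27 and -0.78 in WT stroma, without overlap (1.39, SE 0.82, adjusted p = 0.377). The fit over all groups includes WT epithelium 3, where Id1 and Fstl3 reached 3.07 and 3.33. In the fit of the stromal arrays alone their adjusted p was 0.113 and 0.0775.

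Among the other ligands, Bmp2 was at 3.23, 4.09 and 3.19 in KO and 2.22, 2.56 and 2.92 in WT stroma, and Bmp4 at -1.97, -1.74 and -2.81 in KO and -3.67, -2.87 and -2.89 in WT stroma. Both had the 3 KO values above the WT values, with differences of 0.94 (adjusted p = 0.395) and 0.97 (adjusted p = 0.353). The TGF-beta ligands had differences of -0.003 for Tgfb1, -0.95 for Tgfb2 and -1.41 for Tgfb3 (adjusted p = 0.998, 0.237 and 0.307). A second Tgfb2 probe gave -0.51. Bmp7, which is made by epithelium, ranged from 0.07 to 2.99 in KO and from 1.91 to 3.85 in WT stroma, with overlap. The differences of Bmp5 (0.61), Inha (0.35) and Inhba (-0.07) did not pass either, the last 2 being subunits of inhibins and activins. Gdf10, a ligand also named BMP3b, was well above background on 4 arrays and reached 3.56 on KO stroma 3, where the adipocyte markers were also highest, against 0.37 and 0.96 on the other KO stroma arrays.

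Among the other receptors, differences ran from -0.49 (Acvr2b and Bmpr2) to 0.70 (Acvr1), where a second Acvr1 probe gave 0.16. Tgfbr3 had KO values of -0.12, -0.11 and -0.26 above WT values of -0.68, -0.79 and -0.41 (0.47, adjusted p = 0.378). The 5 measured Smads, the intracellular effectors, each had a negative difference, from -0.32 (Smad2) to -0.09 (Smad5), with SEs of 0.18 to 0.60, but a second Smad4 probe gave 0.19 where the probe used gave -0.19. The antagonists Nog, Chrd and Fst had differences of 0.04, 0.15 and 0.16, and the binding proteins Ltbp1, Ltbp2 and Ltbp3 of 0.77, 1.54 and -0.01, none of which passed. In all, 13 of the 40 genes had stromal groups without overlap, against 26.2% of all genes. The median difference over the 40 was 0.09 against -0.01 over all genes, and 21 were above 0. Over all genes 467 were called higher and 383 lower, a split that became 50 and 151 with median centring and 288 and 350 with Agilent's processed signals.

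**Figure D3:**
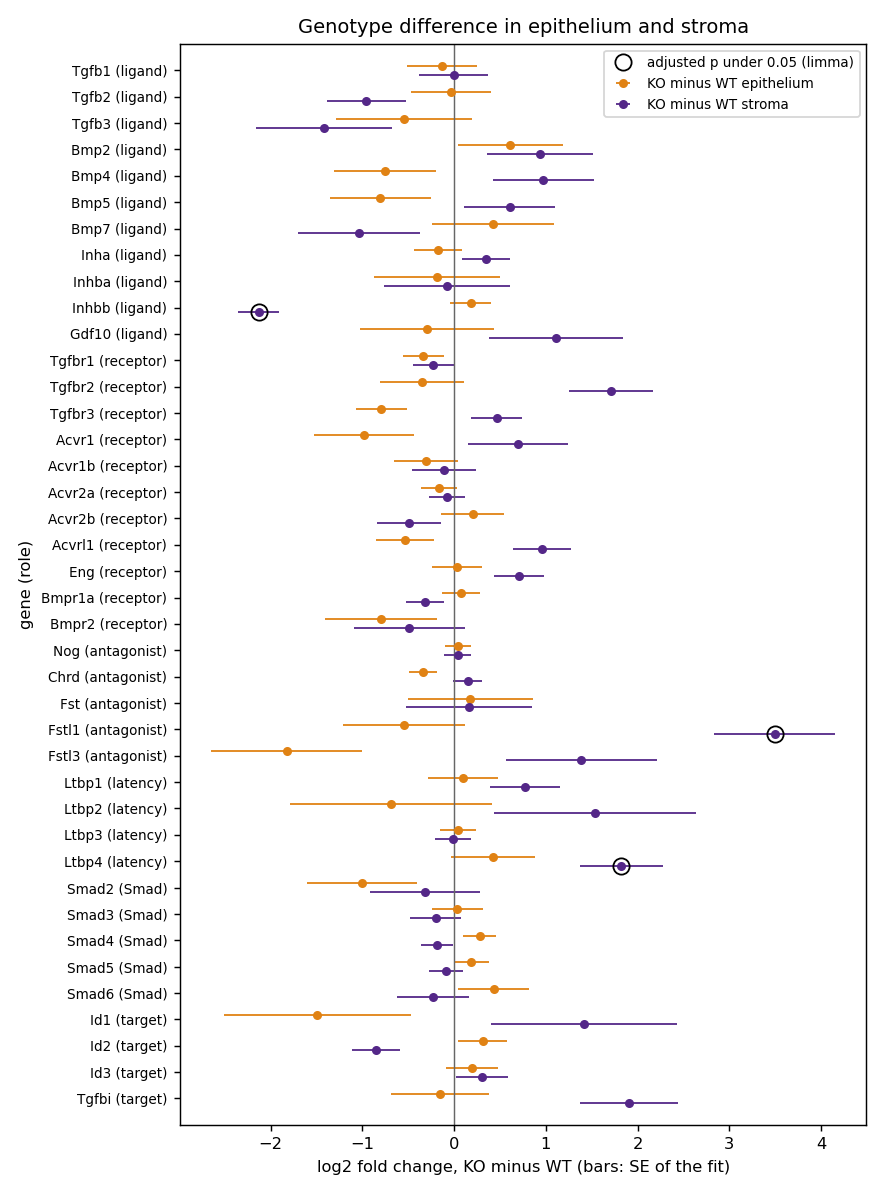
Log2 difference KO minus WT (horizontal axis) for the 40 measured genes (vertical axis, by role) in epithelium (orange) and stroma (purple), with bars of 1 SE of the fit and rings for an adjusted p under 0.05. The 3 rings, at -2.13 (Inhbb), 3.49 (Fstl1) and 1.82 (Ltbp4), are all in stroma.

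Promoter windows of the genes that separated the groups are shown to set the sequence of the 3 called genes beside that of Tgfbr2, Tgfbi and Id2. Each holds the 250 bases before the annotated start in RefSeq on assembly GRCm38.p6, written 5′ to 3′ along the gene. Capitals mark matches, on either strand, to the Smad-binding core CAGAC, the GC motif GGCGCC or the nuclear receptor half-site AGGTCA. The windows lie at chr1:119422249-119422498 (Inhbb, minus strand), chr16:37776805-37777054 (Fstl1, plus strand), chr7:27337613-27337862 (Ltbp4, minus strand, 1 of 3 annotated windows), chr9:116175364-116175613 (Tgfbr2, minus strand), chr13:56609336-56609585 (Tgfbi, plus strand) and chr12:25096093-25096342 (Id2, minus strand).
Inhbb: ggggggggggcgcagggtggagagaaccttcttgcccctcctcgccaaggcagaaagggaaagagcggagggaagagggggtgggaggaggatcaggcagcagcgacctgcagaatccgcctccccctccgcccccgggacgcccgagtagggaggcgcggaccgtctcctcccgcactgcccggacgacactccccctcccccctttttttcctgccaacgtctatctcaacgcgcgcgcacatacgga
Fstl1: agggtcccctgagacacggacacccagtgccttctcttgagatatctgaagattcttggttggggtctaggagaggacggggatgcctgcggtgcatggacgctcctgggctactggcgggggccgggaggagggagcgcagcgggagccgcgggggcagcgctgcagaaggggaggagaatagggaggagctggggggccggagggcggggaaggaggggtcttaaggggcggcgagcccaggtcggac
Ltbp4: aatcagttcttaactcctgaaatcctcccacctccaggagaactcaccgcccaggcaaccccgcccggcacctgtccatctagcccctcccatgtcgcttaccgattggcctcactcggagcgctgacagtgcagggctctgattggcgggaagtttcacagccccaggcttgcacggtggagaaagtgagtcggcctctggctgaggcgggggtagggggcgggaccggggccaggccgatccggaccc
Tgfbr2: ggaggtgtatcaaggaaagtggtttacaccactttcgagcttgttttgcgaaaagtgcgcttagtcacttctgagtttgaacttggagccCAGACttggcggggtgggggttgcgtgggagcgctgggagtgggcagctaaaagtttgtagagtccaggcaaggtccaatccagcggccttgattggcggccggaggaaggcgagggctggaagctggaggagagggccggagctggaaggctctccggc
Tgfbi: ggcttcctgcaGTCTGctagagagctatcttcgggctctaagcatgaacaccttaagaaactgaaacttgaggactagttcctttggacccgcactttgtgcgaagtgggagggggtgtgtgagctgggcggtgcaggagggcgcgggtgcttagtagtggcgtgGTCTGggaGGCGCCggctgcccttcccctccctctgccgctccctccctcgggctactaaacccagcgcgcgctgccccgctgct
Id2: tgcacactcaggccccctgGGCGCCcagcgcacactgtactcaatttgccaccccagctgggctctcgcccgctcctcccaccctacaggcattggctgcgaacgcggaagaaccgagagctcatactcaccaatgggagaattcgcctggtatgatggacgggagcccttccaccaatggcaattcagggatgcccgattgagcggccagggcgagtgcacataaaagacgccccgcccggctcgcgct

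None of the 3 motifs occurs in the printed windows of Inhbb, Fstl1 and Ltbp4, which says only that these letters are not in these windows. The other 2 Ltbp4 windows, which overlap each other (chr7:27333649-27333898 and chr7:27333664-27333913), hold GGCGCC at 184 and 169 bases before their starts. The Tgfbr2 window holds CAGAC 160 bases before the start. The Tgfbi window holds it 239 and 85 bases before the start, both on the other strand and so printed as GTCTG, and GGCGCC at 77 bases. The Id2 window holds GGCGCC at 231 bases, and the windows of Eng (214 and 127 bases) and Id3 (167 and 68 bases) hold CAGAC at 2 places each. The Fstl3 window holds CAGAC at 161 and 14 bases and AGGTCA at 200 bases, and the Bmpr1a window holds GGCGCC at 198 bases. Of 32851 windows of this length, 42.2% hold CAGAC, 9.6% GGCGCC and 14.0% AGGTCA, against 51.1%, 24.4% and 11.1% of 45 windows of the 36 members matched in the table. The median GC content was 64.0% in the members' windows and 52.4% in all windows. These are matches of letters and not measured binding sites.

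A further list of 98 genes of the same pathways gave 72 measured genes, and 7 of these passed in stroma, against 6.37% of all genes. Of the 7, 4 were higher (3.50% of all genes) and 3 lower (2.87%). Bmper, a secreted BMP-binding protein, was at 1.69, 2.09 and 0.83 in KO and -0.24, -0.95 and -0.34 in WT stroma. Its groups were clearly apart, with a log2 difference of 2.05 (SE 0.32, adjusted p = 0.00783). Bmp1, a metalloproteinase that cleaves procollagen and chordin despite its name, was 2.43 higher (adjusted p = 0.0207), and Fbn1, the microfibril protein to which latent TGF-beta binding proteins attach, 2.47 higher (adjusted p = 0.0318). Wfikkn1 was 0.94 higher (adjusted p = 0.0391). Lower in KO stroma were Hey1, a target of BMP and Notch signals, at -1.79, the chordin-like antagonist Chrdl2 at -1.40 and the ubiquitin ligase gene Nedd4l at -1.04 (adjusted p = 0.0084, 0.0278 and 0.0326). Hey1 followed the order of Inhbb, with 0.85, 1.15 and 1.03 in KO stroma against 3.27, 2.68 and 2.46 in WT stroma and 1.95 to 3.29 in the epithelia. In epithelium none of the 72 passed. The median stromal difference was 0.21 over the 72 genes.

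The second question was which signalling genes separated stroma from epithelium within a tumour, fitted with tumour as a block. In KO tumours 11 of 40 genes passed, against 2675 of all genes (20.0%). Of the 11, 8 were higher in stroma (10.2% of all genes) and 3 lower (9.86%). An unadjusted p under 0.05 was reached by 20 of the 40 and by 34.9% of all genes. The 8 were Fstl1, Tgfbi, Tgfbr2, Ltbp4, Bmp4, Acvrl1, Eng and Id3, and the 3 were Inhbb, Id2 and Bmpr1a. By role they are 2 ligands, 4 receptors, 1 antagonist, 1 latency protein and 3 targets, and no Smad. Of the members that did not pass, Ltbp2 had the highest difference (2.48, adjusted p = 0.0686) and Bmp7 the lowest (-1.43, adjusted p = 0.105). The median over the 40 was 0.32 against -0.03 over all genes.

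Fstl1 had the widest gap, 5.35, 4.17 and 5.74 in KO tumours 1, 3 and 4 (mean 5.09, SE 0.69, 34.0-fold, adjusted p = 0.0054). Tgfbi followed with 2.73, 3.78 and 4.65 (3.72, 13.2-fold, adjusted p = 0.00385). Tgfbr2 had 3.24, 2.41 and 3.79 (3.15, 8.87-fold, adjusted p = 0.00277), and its second probe gave 1.01. In each of these genes every KO tumour had more signal in stroma than in epithelium. Ltbp4 had 2.61, 1.57 and 3.08 (2.42, adjusted p = 0.0175), with 2.0 from its second probe. The mean of the fibroblast list also rose in stroma, by 4.37, 3.22 and 6.25 in the same tumours, with all 13 members called and Fn1 (6.19) and Col3a1 (6.17) leading. The list was lowest in KO tumour 3, as were these genes except Tgfbi, which was lowest in KO tumour 1. The macrophage list rose by 2.13, 2.14 and 2.82, with 8 of 9 measured members called higher and 1 lower. All 4 measured pericyte markers were called higher. The part of these cell types in the values of the 4 genes was not tested.

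Bmp4 was below the reference everywhere, at -4.39, -4.18 and -3.79 in KO epithelium and -1.97, -1.74 and -2.81 in KO stroma. The KO stroma values lay above all 3 KO epithelial values, by 1.95 on average (SE 0.43, adjusted p = 0.0239). The endothelial receptor genes had smaller and even gaps, 1.84, 1.73 and 1.66 for Acvrl1 (1.75, adjusted p = 0.011) and 1.07, 1.21 and 0.64 for Eng (0.97, adjusted p = 0.0147). Of 9 measured endothelial markers 5 were called higher in KO stroma, led by Vwf (3.81) and Plvap (3.38). The mean of this list rose by 0.94, 2.08 and 2.29 in KO tumours 1, 3 and 4. Acvrl1 and Eng had their smallest gaps in KO tumour 4, where the list rose most. The part of endothelial cells in these values was not tested. Id3 had 0.82, 0.86 and 0.91 (0.86, adjusted p = 0.0168).

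In the other direction, Inhbb was lower in stroma by 2.29 on average, with -1.84, -2.39 and -2.65 in the 3 KO tumours (SE 0.22, adjusted p = 0.0024). Id2 had -1.43, -2.06 and -1.24 (-1.58, adjusted p = 0.00945). The type I BMP receptor gene Bmpr1a was at 0.41, 0.65 and 0.53 in KO epithelium and 0.01, -0.17 and -0.54 in KO stroma (-0.76, adjusted p = 0.0418). All 3 genes thus had every KO stroma value below every KO epithelial value. The luminal list moved the same way, by -2.34, -2.15 and -2.62, with 10 of 11 measured markers called lower, and its part was not tested. With only 2 KO tumours in the fit, 5 to 7 members passed, and Fstl1, Inhbb, Tgfbr2 and Tgfbi did so without each KO tumour in turn. Acvrl1, Bmpr1a and Id3 fell short without any 1 of them.

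In WT tumours no signalling gene passed, and 1 gene in all did (0.00749%). Unadjusted p was under 0.05 for 9 of the 40, against 8.81% of all genes. The WT gaps were 2.13, 0.60 and 2.25 for Tgfbi (1.66, SE 0.44, adjusted p = 0.42) and 0.78, 0.66 and 1.84 for Tgfbr2 (1.09, adjusted p = 0.459). Id3 had 1.07, 0.69 and 0.49 (0.75, adjusted p = 0.409), close to its gap in KO tumours. Fstl1 varied between WT tumours from -0.99 to 2.97, as did the fibroblast list, from -0.87 in tumour 2 to 3.61 in tumour 3. Inhbb had 0.41, -0.18 and -0.18, while the luminal list had -0.35, -0.63 and -0.62. The direction was shared by the 3 WT tumours for 15 of the 40 genes, against 31.2% of all genes, and by the 3 KO tumours for 27, against 54.3%.

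**Figure D4:**
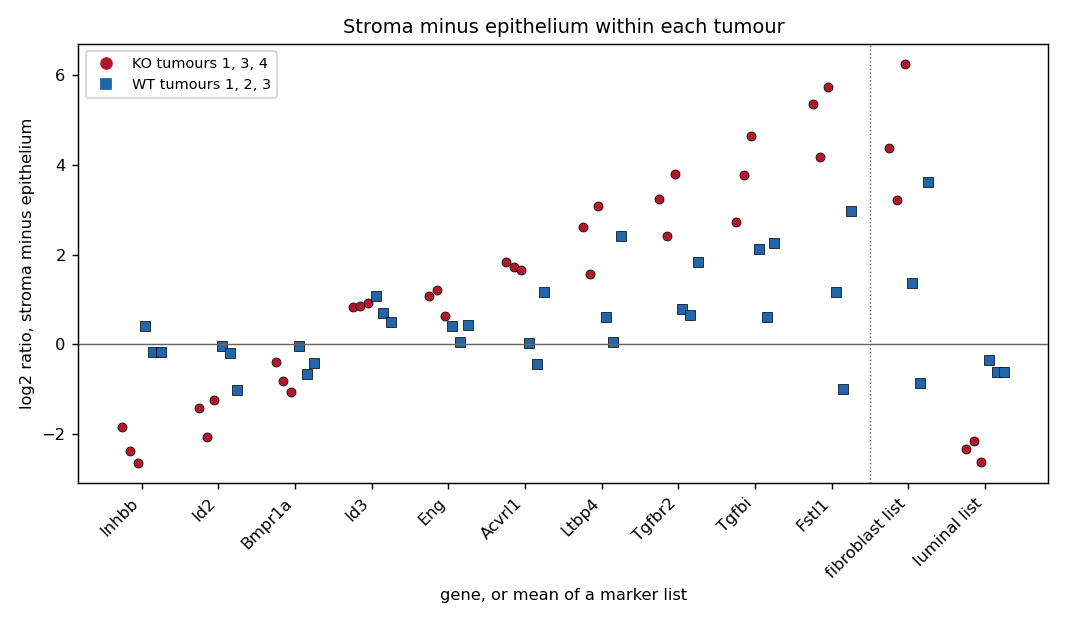
Stroma minus epithelium in log2 units (vertical axis) within each tumour for the 10 genes called over all 6 tumours and for the means of the fibroblast and luminal marker lists (horizontal axis), with red circles for KO tumours 1, 3 and 4 and blue squares for WT tumours 1, 2 and 3, each from left to right. Inhbb separates the genotypes (-2.65 to -1.84 against -0.18 to 0.41), while Id3 lies between 0.49 and 1.07 in all 6 tumours.

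Over all 6 tumours 10 genes passed, against 15.0% of all genes, and they are the 11 called in KO tumours without Bmp4. By direction, 7 were higher (8.37% of all genes) and 3 lower (6.63%). Higher in stroma were Fstl1 (3.07), Tgfbi (2.69), Tgfbr2 (2.12), Ltbp4 (1.72), Acvrl1 (1.0), Id3 (0.81) and Eng (0.64), with adjusted p from 0.00489 (Tgfbr2) to 0.0263 (Acvrl1). Lower were Inhbb (-1.14), Id2 (-1.0) and Bmpr1a (-0.57). The sign was the same in all 6 tumours for 10 members, again against 15.0% of all genes. Of these, 7 were called (Tgfbr2, Eng, Ltbp4, Id3, Tgfbi, Bmpr1a and Id2) and 3 were not. The ligand Tgfb1 had gaps of 0.05 to 1.51 (0.83, adjusted p = 0.0534). The type I receptor Tgfbr1 had gaps of -0.47 to -0.17 (-0.36, adjusted p = 0.0633), and Ltbp3 a mean of -0.30 (adjusted p = 0.16). Fstl1, Acvrl1 and Inhbb were called although 1 WT tumour went the other way.

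The difference between the genotypes in these gaps, which equals the KO effect in stroma minus that in epithelium, was tested directly. No gene passed over the whole array, while 18.1% of all genes and 12 of the 40 had an unadjusted p under 0.05. Inhbb came closest among the members, with a difference of -2.31 (SE 0.31, adjusted p = 0.0586). It passed among genes above background on all 12 arrays (adjusted p = 0.0413), with array weights (0.0401) and without the tumour block (0.0281). Fstl1 had 4.04 (SE 0.97, adjusted p = 0.122) and Tgfbr2 2.06 (SE 0.47, adjusted p = 0.115). Ltbp4 had 1.40 (SE 0.68, adjusted p = 0.33). Acvrl1, at 1.49 (adjusted p = 0.156), passed without WT tumour 3 (1.95, adjusted p = 0.0489). A larger KO effect in stroma than in epithelium was therefore not shown for any of the 40 in the fit over all tumours.

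Of the 72 other pathway genes, 16 were higher and 8 lower in the stroma of KO tumours, against 10.2% and 9.86% of all genes. None passed in WT tumours, where 1 gene in all did (0.00749%) and 7 of the 72 had an unadjusted p under 0.05 (8.81% of all genes). Those higher included the matrix genes Col1a1 (5.90), Col1a2 (5.45) and Dcn (3.66), which also stand on the fibroblast list, and Fbn1 (3.32), Tns1 (3.22), Nbl1 (2.79) and the proteoglycan gene Bgn (2.67). Lower in stroma were the BMP antagonist gene Sostdc1 (-2.33) and the BMP targets Msx2 (-1.64), Id4 (-1.61) and Hey1 (-1.39). The repressor genes Tgif1 (-1.18) and Skil (-0.69) were also lower. Over all 6 tumours 14 were higher and 6 lower, against 8.37% and 6.63% of all genes. With Id2 lower and Id3 higher, targets of the BMP branch were called in both directions between compartments.

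A few members had only a bound in some groups, because no array of the group had the probe well above background. Gdf10 was not well above background in KO epithelium and was at least 2.13-fold higher in KO stroma, taking the mean Cy3 signal against the lowest signal counted as above background, which is open to dye bias. Of the 3 KO stroma arrays 2 were above background, and without KO stroma 3 the bound was 1.11-fold (adjusted p over all 3 KO tumours = 0.205). Nog, the BMP antagonist noggin, was not well above background in KO or WT stroma, and its differences between compartments were -0.11 in KO and -0.10 in WT tumours (adjusted p = 0.647 and 0.914). Acvr1b was not well above background in KO stroma.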

How the data were processed

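Per the labels, the tumour RNA carried Cy3 and the reference RNA carried Cy5. Dyes were never swapped. Per the file headers, Agilent Feature Extraction 10.7.3.1 made the scanner files. The deposited scanner files hold intensity of spot and background for both dyes, and the log10 ratio Cy5 over Cy3. Values on a log2 scale stand in a deposited value table. How they were computed is not stated here. Its 6 epithelial columns ran as reference over sample (r between -0.903 and -0.869 with the ratio used here, column medians from -0.035 to 0.0343) and served as an alternative. Its 6 stromal columns (medians from -0.0073 to 0.0293) matched none of the arrays. Scale, direction and row order of these are unknown, and no test used them.

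Each array has 62976 spots, 3671 of them controls. Median signals were corrected with normexp (offset 50, the files used here giving medians where means had been planned) and loess, control spots at weight 0, and turned to Cy3 over Cy5. Spots of a probe were averaged (55681 probes, 27235 named through a RefSeq table of assembly GRCm38.p6 by accession without version, 20660 genes). Probes needed Cy3 well above background on 3 or more of the 12 arrays, and each gene took its brightest such probe. Since the headers name another build, no probe coordinates are given. The members had 61 probes, and 6 members had more than 1 kept probe.

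Tests used limma 3.58.1 in R 4.3.3 with Benjamini-Hochberg adjustment over 13350 genes and were checked on simulated data. KO and WT were compared in a fit of 4 group means over 12 arrays with 8 residual degrees of freedom. That fit takes the compartments of a tumour as independent, while their estimated correlation was 0.22. With tumour as a random block 2 members were called in stroma, Inhbb and Fstl1. Compartments were compared within tumours, taken as a fixed block, with 4. Titles give the same genotype and number to both compartments, which pairs them. Across genes, deviations from the group means correlated between the 2 compartments with r of 0.09 (tumour 1), 0.29 (tumour 3) and 0.23 (tumour 4) in KO and of 0.45, 0.29 and 0.25 in WT. The members and lists were chosen with earlier results of these data known. A member was described on every array where a test passed or where stromal or epithelial groups differed by at least 1 without overlap, and further ones were added after their values were seen. The rule was to name up to 8 called genes of the further pathway list per comparison and up to 4 of each marker list. For stroma against epithelium in KO tumours more than 8 of the further list were named. One gene of the further list that this rule would name is not reported here.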

Additional observations from a re-analysis of the deposited data

Results flagged for a closer look

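For 3 signalling genes the difference between stroma and epithelium had one sign in all 3 KO tumours and the opposite sign in all 3 WT tumours. How many of all genes show this pattern was not counted, so the 3 cannot be set against a background share. The co-receptor gene Tgfbr3 had 1.18, 0.53 and 0.15 in KO tumours 1, 3 and 4 and -0.52, -0.43 and -0.97 in WT tumours 1, 2 and 3, and the genotypes differed by 1.259 (SE 0.33, limma adjusted p = 0.14). The BMP target gene Id1 had 2.12, 0.86 and 0.24 in KO and -0.56, -0.85 and -4.09 in WT tumours, a difference of 2.905 (SE 0.99, adjusted p = 0.207), with the lowest value from WT tumour 3, whose epithelial array stood above the others for this gene. The shared Smad gene Smad4 had -0.39, -0.35 and -0.35 in KO and 0.15, 0.13 and 0.02 in WT tumours, a difference of -0.466 (SE 0.20, adjusted p = 0.288). A second Smad4 probe gave 0.17 in KO and 0.42 in WT tumours, the other sign in KO. None of the 3 differences passed the adjusted threshold.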

How the results depend on the processing

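Over 15 settings for stroma (7 genes followed), 10 for KO tumours (11 genes) and 13 for all tumours (10 genes), none of the values followed reversed its sign. Several of these settings change only the spread or the genes tested and returned the main value, so the sign could not reverse there. Examples are the stromal arrays alone, tumour as a random block and the fit without the tumour block. Over all 40 members, Agilent's processed signals turned 2 signs in stroma (at most 0.07 in size, Acvr2a and Tgfb1), 4 in KO tumours (at most 0.26) and 2 over all tumours (at most 0.18), and median centring turned 0, 2 and 1. The counts did depend on the processing. In stroma the 850 genes became 201 with median centring, 292 with the 6 stromal arrays alone and 175 to 887 when 1 array was left out, and the 3 members became 4 with the stromal arrays alone or the filter on all 12 arrays and 1 to 3 with 1 array left out. Without KO stroma 1 or WT stroma 1, Inhbb was the only member called. With the replicate number of the titles as a replicate block, 1 gene and 0 members were called in stroma and 0 in epithelium, and the adjusted p of Inhbb was 0.155 at -2.18. Number 2 occurs only in WT and number 4 only in KO, so this fit compared tumours 1 and 3 of each genotype. It also left fewer residual degrees of freedom than the main fit. Whether KO and WT tumours of the same number share more than that number is not stated. Their deviations from the group means correlated at 0.30 (number 1) and -0.30 (number 3) in epithelium and at 0.04 and -0.06 in stroma. So few correlations cannot decide this. The single epithelial gene was lost (0) with the deposited value table, with epithelial arrays alone, with detection required on all 12 arrays, with processed signals and with any 1 array left out. In KO tumours 2675 genes became 1531 with median centring and 1095 to 1218 without 1 tumour, and the 11 members became 5 to 7 without 1 tumour. Over all tumours 2003 genes became 1177 with median centring and 939 to 1385 without 1 tumour, and the 10 members became 6 to 11 without 1 tumour. In WT tumours the 1 gene became 0 with processed signals, median centring, the filter on all 12 arrays, no replicate block or 1 tumour left out. For the difference between genotypes, 0 genes became 22 with no filter, 93 (1 member) with the filter on all 12 arrays, 79 (1 member) with array weights, 50 (1 member) without the tumour block and 0 to 135 (0 to 1 members) without 1 tumour, the highest without WT tumour 3. The cause of these shifts was not tested. Median centring moved the median of all genes in epithelium from 0.03 to -0.17 and turned the sign of 12 of 40 members there, each at most 0.31 in size. Signal over background limits what can be said of the 8 members without a value and of Gdf10, Nog, Acvr1b and Acvr2a.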
